A study of Rattus norvegicus with 16 samples.

Results

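Among the 16 rat RNA-seq libraries of this series, 6 came from males given saline around birth, and their library numbers fall into 2 runs. SM01 and SM02 have the numbers 1 and 2, and SM09, SM10, SM11 and SM12 have the numbers 9 to 12. The 6 libraries were taken by these numbers alone, and 2 were compared with 4. All 6 are libraries of male offspring with the same exposure to saline and tissue labelled as central amygdala. The adult rats had finished sessions that the labels abbreviate as IVSA, and dissection followed 1 day later. The other libraries are 8 of fentanyl offspring and 2 of saline females with the numbers 10 and 11, and none of them entered the comparison. The sources used here do not give strain, age in days, litter or what a library number stands for. All p-values reflect only the variation among these 6 libraries, which may be technical in part, and a difference between the number sets cannot be told apart from any litter, dissection or handling that goes with the numbers.

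The central amygdala is a nucleus of GABAergic neurons that lies against the caudal striatum, the globus pallidus, the basolateral amygdala and the white matter around them. Its neurons and the spiny projection neurons of the striatum arise from related parts of the embryonic forebrain and share several transcripts. Striatal spiny neurons of the indirect pathway make Adora2a, Drd2 and Penk, and those of the direct pathway make Drd1, Tac1 and Pdyn. The pallidum and basal forebrain hold neurons that make Pvalb, Npas1 or Chat among many myelinated axons. Glutamatergic neurons of the basolateral amygdala and cortex make Slc17a7. In bulk tissue, fewer cells of a type and less RNA per cell cannot be told apart.

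Total counts of the 6 libraries lay between 14554574 and 22426428 and did not separate the sets (exact two-sided permutation test over 15 splits, p = 0.4, where the smallest p that 2 against 4 can give is 0.133). Mitochondrially encoded genes took 10.6% and 11.8% of the counts in SM01 and SM02 and 8.44% to 11.7% in the other set. SM09 had the largest total and the lowest mitochondrial share, and it stood apart from SM10, SM11 and SM12 in its markers. Slc17a7, the vesicular glutamate transporter of cortical and basolateral neurons, was at 69.0 CPM (counts scaled to library size with TMM factors) in SM09 and at 0.998 to 1.77 CPM in the other 5 libraries. Several values below are therefore given without SM09 as well.

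Of 17298 genes that passed a filter on low counts, 992 (5.73%) were higher and 1028 (5.94%) were lower in numbers 1 and 2 than in numbers 9 to 12, at a Benjamini-Hochberg adjusted p under 0.05 in the quasi-likelihood test of edgeR. DESeq2 called 8.86% higher and 11.5% lower, and limma voom 4.6% higher and 3.91% lower. Without a threshold on p, 22.8% of the genes tested had both libraries of numbers 1 and 2 above all 4 of the others, and 22.6% had both below. Counts of list members called or without overlap, given below, are to be read beside these shares of all genes tested. The median log2 fold change over all genes tested was -0.01, and 48.9% of genes had a fold change above 0. Fold changes are those of numbers 1 and 2 minus numbers 9 to 12, on the log2 scale, with their standard errors. Of the genes called, 871 differed by at least 1 on this scale, 364 of them higher and 507 lower. Genes of striatal spiny neurons and immediate early genes were among those higher in numbers 1 and 2, and genes of oligodendrocytes, astrocytes, parvalbumin neurons and pallidal neurons among those lower.

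The number of genes called depended on single libraries. Without SM09, 2514 genes were higher and 2770 lower. Without SM10 the counts were 198 and 140, without SM12 432 and 276, and without SM01 31 and 63. Without SM02, 1 gene was higher and 1 lower, and without SM11 edgeR called no gene, while 4665 had an unadjusted p under 0.05. DESeq2 on the same 5 libraries, chosen after seeing the data, called 1013 higher and 1343 lower without SM11, and 339 and 581 without SM02. In the 6 edgeR fits with a library left out, all 992 genes called higher from the 6 libraries kept their sign. Of the 1028 called lower, 1024 to 1028 did, and a gene that failed the filter of that fit was not counted. All 2020 called genes had no overlap between the sets. Leaving out a library could therefore hardly reverse a sign, and this agreement adds no support to the calls. The calls named below are those of the 6 libraries together.

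**Figure D1:**
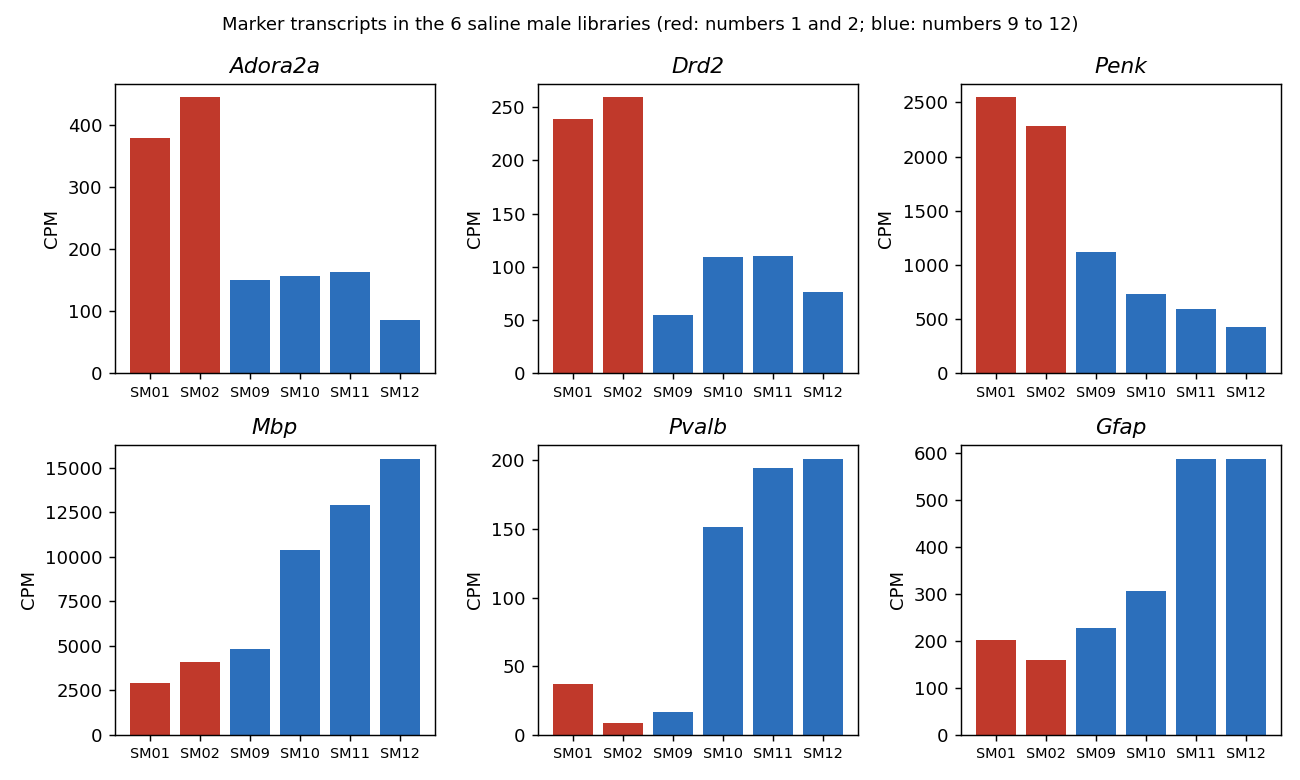
Levels of 6 marker transcripts in each saline male library, in CPM on linear axes that start at 0; red bars are numbers 1 and 2 and blue bars numbers 9 to 12, 1 library per bar. Adora2a, Drd2 and Penk are highest in SM01 and SM02, Mbp and Gfap are lowest there, and Pvalb is at 16.8 CPM in SM09 and at 151 to 201 CPM in SM10 to SM12.

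Markers of indirect pathway spiny neurons were higher in numbers 1 and 2. Of 6 members, 5 were called higher and none lower, and the median log2 fold change was 1.63. Adora2a, an adenosine receptor, had 379 and 444 CPM in SM01 and SM02 and 150, 157, 163 and 85.2 CPM in SM09 to SM12, a log2 fold change of 1.57 ± 0.24 (SE; edgeR adjusted p = 0.023). The sets did not overlap, and SM12 was below the other libraries of its set. Drd2, the dopamine D2 receptor, had 239 and 259 CPM against 54.5, 109, 110 and 76.5 CPM (1.51 ± 0.26, adjusted p = 0.0258). Penk, the enkephalin precursor, had 2545 and 2286 CPM against 1117, 733, 594 and 429 CPM (1.75 ± 0.33, adjusted p = 0.029). Within numbers 9 to 12 it was highest in SM09, where Drd2 was lowest. Gpr6, an orphan receptor of these neurons, had 120 and 133 CPM against 15.4 to 46.1 CPM (1.96 ± 0.37), and Gpr52, a Gs-coupled orphan receptor, rose by 1.69 ± 0.34. Sp9, a transcription factor of indirect pathway neurons, was the member that did not pass (0.57 ± 0.41, adjusted p = 0.374), with 26.1 CPM in SM09 against 8.66 to 13.7 CPM in SM10 to SM12.

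The transcripts that both kinds of spiny neuron share were higher as well. Of 20 members, 16 were called higher, all 20 had no overlap between the sets, and the median log2 fold change was 1.20. Arpp21, a cAMP-regulated phosphoprotein, had 1642 and 1673 CPM in SM01 and SM02 and 390 to 744 CPM in the other set (1.52 ± 0.25, adjusted p = 0.0234). Ppp1r1b, which encodes DARPP-32, had 1556 and 2173 CPM against 601, 1033, 955 and 608 CPM (1.22 ± 0.27, adjusted p = 0.0365). SM09 and SM12 had the lowest levels of both. Bcl11b, the transcription factor CTIP2, had 303 and 346 CPM against 101 to 161 CPM (1.22 ± 0.18), and Gnal, the G protein alpha subunit that couples dopamine and adenosine receptors to adenylyl cyclase, 542 and 569 CPM against 210 to 313 CPM (1.05 ± 0.16). Members that missed the threshold included Pde10a (1.21 ± 0.35, adjusted p = 0.0636), Rgs9 (1.25 ± 0.37) and Scn4b (1.24 ± 0.45, adjusted p = 0.108). In each of these, SM02 was above SM01, as for Rgs9 with 699 and 349 CPM.

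Direct pathway markers were divided. Of 9 members, 3 were called higher, none lower, and the median was 0.37. Tac1, the substance P precursor, had 179 and 268 CPM against 61.6, 139, 97.6 and 83.1 CPM (1.23 ± 0.30, adjusted p = 0.0455). Pdyn, the dynorphin precursor, had 560 and 341 CPM against 170, 296, 177 and 161 CPM (1.16 ± 0.29), and Ebf1, a transcription factor of direct pathway neurons, rose by 0.75 ± 0.16. Drd1, the dopamine D1 receptor, had 252 and 343 CPM against 94.0 to 204 CPM and did not pass (1.1 ± 0.31, adjusted p = 0.0613). Chrm4, the M4 muscarinic receptor (0.32 ± 0.30), Slc35d3 (0.37 ± 0.31), Eya1 (0.10 ± 0.50), Sfxn1 (0.02 ± 0.16) and Isl1, a LIM homeodomain factor (-0.12 ± 0.22), overlapped between the sets. The median of this list was 0.04 without SM02 and 0.74 without SM01, whereas that of the indirect pathway list stayed between 1.46 and 1.70 with any 1 library left out.

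**Figure D2:**
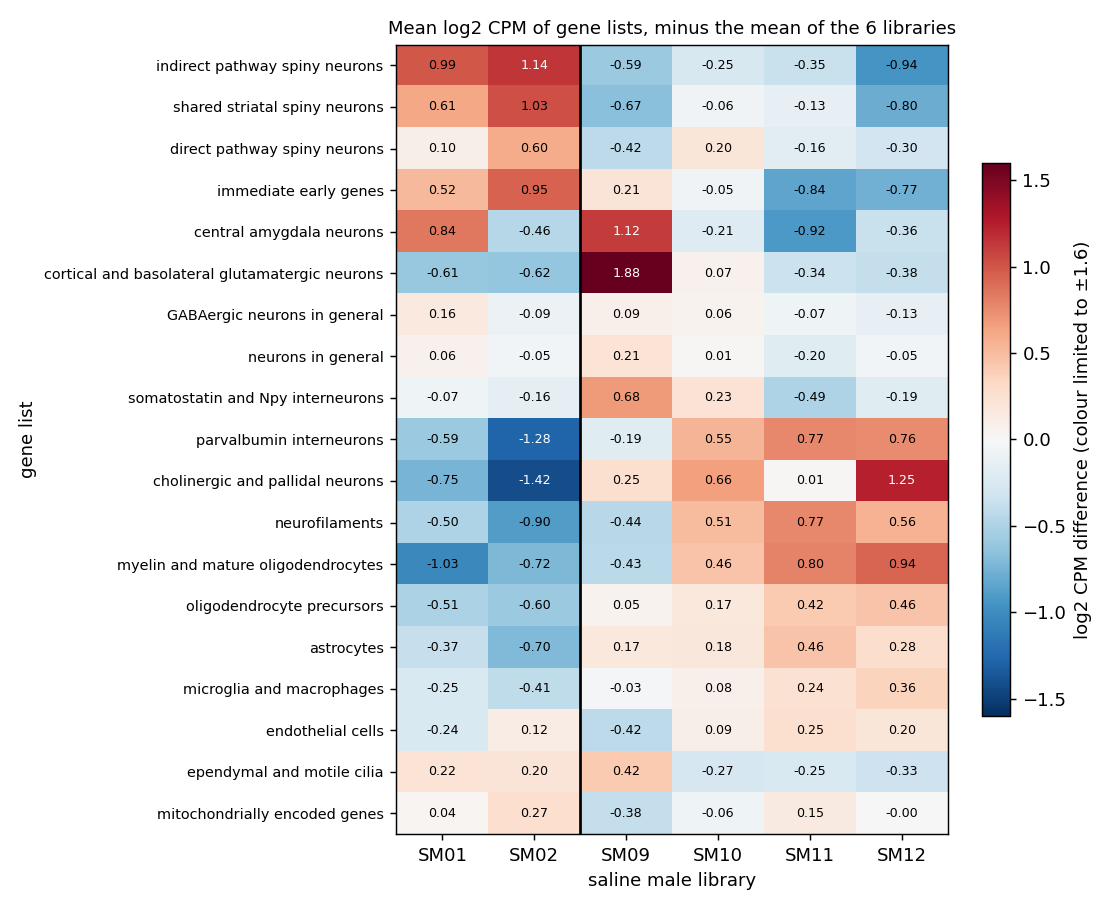
Mean log2 CPM of 19 gene lists in each library, minus the mean of the 6 libraries for that list; columns are libraries, the black line separates numbers 1 and 2 from 9 to 12, and red is above and blue below the mean. The striatal lists are red in SM01 and SM02, the myelin and glial lists are blue there, and SM09 is far above the mean for the cortical and basolateral list, with 3.87 against 1.37 to 2.06 log2 CPM elsewhere.

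Myelin and mature oligodendrocyte genes showed the opposite pattern. All 26 members had a fold change below 0, 10 were called lower, 25 had no overlap between the sets, and the median log2 fold change was -1.40. Mbp, myelin basic protein, had 2912 and 4111 CPM in SM01 and SM02 and 4845, 10394, 12886 and 15494 CPM in SM09 to SM12 (-1.63 ± 0.46, adjusted p = 0.0575, above the threshold). SM09 lay next to SM02, and SM10, SM11 and SM12 were apart from both. Hapln2, a link protein at nodes of Ranvier, had 87.3 and 94.9 CPM against 153, 357, 437 and 544 CPM and was called (-2.03 ± 0.47, adjusted p = 0.0409). Opalin (-1.41 ± 0.34), Myrf, the transcription factor that drives myelin genes (-1.44 ± 0.34), and Olig1 (-1.30 ± 0.30) were called lower too. Without SM09 the median of the list was -1.62, and with any other library left out it lay between that value and -1.20.

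Markers of younger cells of the oligodendrocyte lineage were lower too. Of 7 precursor markers, 6 were called lower (median -0.90) and none overlapped between the sets. Olig2 had 30.0 and 30.8 CPM against 43.8, 80.0, 101 and 98.8 CPM (-1.41 ± 0.33), and C1ql1, a secreted synaptic organizer, 8.27 and 6.75 CPM against 13.1 to 17.2 CPM (-0.97 ± 0.17). Cspg4, the NG2 proteoglycan, fell by 0.51 on the log2 scale, a smaller change. The precursor marker not called was Pdgfra, with 56.1 and 43.8 CPM against 73.3, 63.0, 68.9 and 61.0 CPM (-0.42 ± 0.13, edgeR adjusted p = 0.0763). Of 6 markers of newly formed oligodendrocytes, 2 were called lower, Enpp6 (-1.49 ± 0.34) and Nkx2-2 (-1.21 ± 0.28), and the median was -0.89.

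Astrocyte genes were lower in part. Of 21 members, 10 were called lower, none higher, 18 had no overlap and the median was -0.58. Itih3, an inter-alpha-trypsin inhibitor heavy chain, had 130 and 37.9 CPM against 372, 405, 562 and 584 CPM (-2.52 ± 0.50, adjusted p = 0.0311). Slc6a11, the GABA transporter GAT-3, had 21.4 and 8.99 CPM against 54.6 to 72.2 CPM (-2.04 ± 0.33), and Agt, angiotensinogen, 57.6 and 44.9 CPM against 129 to 195 CPM (-1.70 ± 0.22). In all 3 genes SM09 sat with the rest of its set. Gfap, the astrocyte intermediate filament, had 201 and 159 CPM against 228, 306, 586 and 587 CPM and did not pass (-1.24 ± 0.42, adjusted p = 0.0882). Several general astrocyte transcripts were not called: Aqp4 had -0.08 ± 0.11, Slc1a3 -0.15 ± 0.21, Sox9 -0.15 ± 0.13 and Slc1a2 0.20 ± 0.34. The list thus held members such as Agt with a difference of more than 1 on the log2 scale and members such as Aqp4 at 302 to 352 CPM in all 6 libraries.

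Of 19 microglia and macrophage markers all had a fold change below 0, 4 were called lower and the median was -0.51. Laptm5, a lysosomal membrane protein, had 19.3 and 19.9 CPM against 30.2 to 38.6 CPM (-0.74 ± 0.13), and C1qc, a complement subunit, fell by 0.84. None of 18 endothelial and none of 12 mural markers was called, with medians of -0.11 and -0.19 (-0.25 and -0.36 without SM09), and at an extreme of the endothelial list Egfl7 had 0.39 ± 0.20 (adjusted p = 0.21). In the meningeal and fibroblast list only Ptgds, a prostaglandin synthase that oligodendrocytes also make, was called of 14 members tested (-1.87 ± 0.47). In the choroid plexus list the calls were Enpp2, which oligodendrocytes also make (-1.42 ± 0.36), and Slc4a5 (-1.61 ± 0.40), while Ttr, its defining transcript, had 0 counts in 5 of the 6 libraries and 1 in SM02. Of the 6 genes of the blood list none was called.

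Transcripts of parvalbumin neurons were lower in numbers 1 and 2. Of 7 members tested, 5 were called lower and none higher (median -1.25). Pvalb itself, a calcium buffer of fast-spiking neurons, had 37.3 and 8.75 CPM in SM01 and SM02 and 16.8, 151, 194 and 201 CPM in SM09 to SM12 (-2.62 ± 1.02, adjusted p = 0.125). It did not pass, and SM09 lay between SM01 and SM02. The potassium channel genes Kcnc1 and Kcnc2, which let such neurons fire fast, had 66.4 and 47.5 against 97.9 to 157 CPM (-1.27 ± 0.23) and 33.4 and 9.87 against 59.2 to 86.6 CPM (-1.84 ± 0.44, and -2.95 to -1.19 for Kcnc2 with 1 library left out). Lhx6 and Sox6, transcription factors of neurons born in the medial ganglionic eminence, fell by 1.22 and by 0.89. Syt2, a synaptotagmin of fast synapses, had 120 and 118 CPM against 72.2, 260, 322 and 233 CPM and overlapped. Hapln4, a link protein of perineuronal nets around such neurons, had 41.3 and 10.7 CPM against 53.1, 140, 163 and 152 CPM without passing (-2.30 ± 0.64, adjusted p = 0.0582). Nefh, the heavy neurofilament chain, had 94.3 and 36.2 CPM against 92.5, 293, 355 and 314 CPM (-2.02 ± 0.61, adjusted p = 0.0688), and none of 4 neurofilament genes was called. For Pvalb, Syt2, Hapln4 and Nefh, SM09 was nearer to numbers 1 and 2 than to SM10, SM11 and SM12, whereas for Kcnc2, Lhx6 and Sox6 it lay within the range of those libraries.

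Cholinergic and pallidal markers were lower together. All 10 members had a fold change below 0, 8 had no overlap, 5 were called lower and the median was -1.36. Npas1, a transcription factor of pallidal neurons that project to the striatum, had 8.06 and 2.82 CPM against 14.5, 23.1, 28.8 and 24.2 CPM (-2.07 ± 0.45, adjusted p = 0.0352). Lhx8, a LIM homeodomain factor of cholinergic neurons, had 11.5 and 9.34 CPM against 27.5, 35.8, 23.0 and 54.9 CPM (-1.76 ± 0.37). Ngfr, the p75 neurotrophin receptor of basal forebrain cholinergic neurons, had 8.00 and 1.88 CPM against 31.0, 49.2, 22.1 and 100 CPM (-3.38 ± 0.82, adjusted p = 0.0448). SM12 was the highest for both Lhx8 and Ngfr, and SM11 the lowest of its set. Gbx1 (-2.42 ± 0.43) and Nkx2-1, which specifies the pallidum (-1.29 ± 0.33), were the other calls. Chat, which makes acetylcholine, had 17.6 and 15.9 CPM against 32.9, 38.9, 20.7 and 68.9 CPM and did not pass (-1.27 ± 0.44, adjusted p = 0.097).

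**Figure D3:**
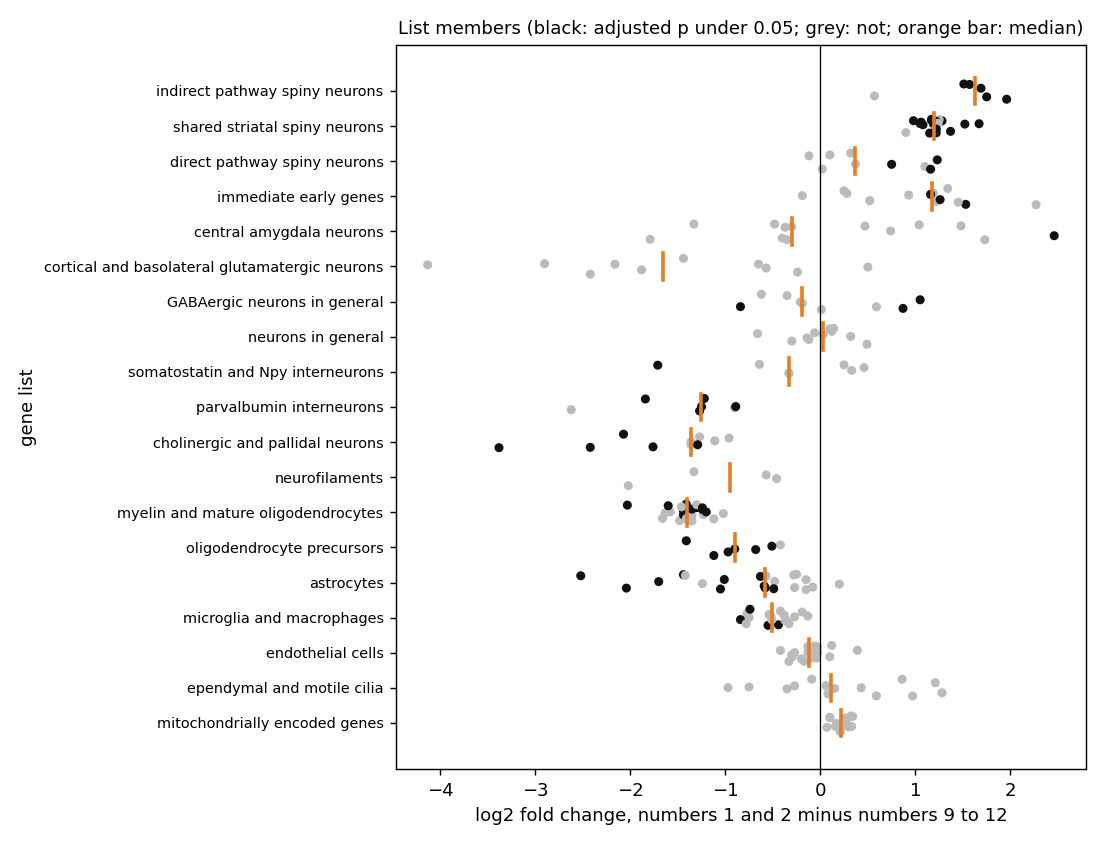
Log2 fold change of each member of 19 gene lists, numbers 1 and 2 minus numbers 9 to 12; each point is a gene, black where its edgeR adjusted p is under 0.05 and grey where it is not, and the orange bar is the list's median. The indirect pathway median is 1.63, the myelin median -1.40 and the median of neurons in general 0.03.

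Pan-neuronal markers gave no call in 11 members (median 0.03, edgeR), with Stmn2, a growth-associated microtubule protein, at -0.66 ± 0.18 (adjusted p = 0.0537). Among 9 general GABAergic genes, Slc32a1, the vesicular GABA transporter, had 273 and 263 CPM against 248 to 282 CPM (0.01 ± 0.10). Gad1, which makes GABA, had 649 and 489 CPM against 562 to 718 CPM (-0.19 ± 0.16). The neighbouring homeobox genes Dlx5 (0.87 ± 0.16) and Dlx6 (1.05 ± 0.16) were higher. The somatostatin and Npy list had 1 call of 7 members, Elfn1, a synaptic adhesion protein (-1.71 ± 0.33), while Sst had 89.2 and 155 CPM against 209, 90.0, 49.2 and 61.9 CPM and overlapped (0.25 ± 0.56). In the list of Vip, Cck and Lamp5 interneurons, Reln, reelin (1.72 ± 0.26), and Htr3a, the ionotropic serotonin receptor (1.20 ± 0.16), were higher, and Adarb2 (-1.20 ± 0.23) was lower. Vip was at 0.117 to 3.15 CPM.

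Markers of the labelled nucleus were detected but did not follow the number sets. Of 14 central amygdala markers 13 passed the filter, Vdr did not, and a single member was called, Cartpt, the CART peptide precursor, with 69.8 and 33.4 CPM against 19.1, 9.37, 2.59 and 5.89 CPM (2.46 ± 0.63, adjusted p = 0.0485). The list's median was -0.30, and 0.79 without SM09, so its sign rests on that library. Prkcd, protein kinase C delta of lateral central amygdala neurons, had 20.4 and 15.1 CPM in SM01 and SM02 and 33.8, 16.8, 15.3 and 21.2 CPM in SM09 to SM12 (-0.30 ± 0.33). Crh, corticotropin-releasing hormone, had 17.5 and 0.529 CPM against 5.53, 3.92, 1.6 and 1.58 CPM (1.48 ± 1.00), so that its 2 libraries of numbers 1 and 2 were the highest and the lowest. Dlk1 had 25 and 10.5 CPM against 40.4, 4.37, 0.773 and 4.49 CPM, and Nts, neurotensin, 11.3 and 6.28 CPM against 29.8, 5.89, 4.86 and 5.31 CPM. SM09 or SM01 had the highest level of each of these 4 genes, and SM11 had the lowest of Dlk1 and Nts. The mean log2 CPM of the list was 4.73 in SM09 and 4.45 in SM01, against 2.69 to 3.40 in the other 4. Of 5 markers of intercalated amygdala neurons, Meis2, which striatal neurons also make, was called higher (0.89 ± 0.18), and Foxp2 had 25.9 and 49.0 CPM against 50.8 to 74.1 CPM (-0.69 ± 0.26).

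Cortical and basolateral glutamatergic markers were highest in SM09. Of 10 members tested none was called, and the median of -1.66 became -0.42 without SM09. Bhlhe22, the member with the smallest p, had 0.209 and 0.881 CPM against 4.47, 2.78, 1.49 and 3.33 CPM. Its sets did not overlap, and it narrowly missed the threshold (-2.42 ± 0.63, edgeR adjusted p = 0.0501). Neurod6 had 4.47 CPM in SM09 and 0.139 to 0.949 CPM in the others, and Slc30a3, the synaptic zinc transporter, 10 CPM in SM09 and 0.0584 to 0.765 CPM in the others. Neurod2 and Rspo2 did not pass the filter and had 72 and 43 counts in SM09 against at most 2 and 7 in any other library. In the thalamic list 2 of 7 members were lower and 1 higher. The higher member was Synpo2, with 10.4 and 15.3 CPM against 1.91, 5.38, 5.46 and 1.81 CPM (1.84 ± 0.47, edgeR adjusted p = 0.0495). Slc17a6, the transporter of thalamic and hypothalamic glutamatergic neurons, differed between the sets as well, with 2.02 and 0.294 CPM against 15.1, 7.66, 4.41 and 7.41 CPM (-2.95 ± 0.76, adjusted p = 0.0489). Tcf7l2, which thalamic neurons and oligodendrocytes make, had 10.4 and 10 CPM against 21.2 to 28.3 CPM (-1.21 ± 0.16). Of the hypothalamic list, 8 of 12 members did not pass the filter and none of the other 4 was called, with Pmch at 0 counts in all 6 libraries. None of 4 monoaminergic markers tested was called.

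**Figure D4:**
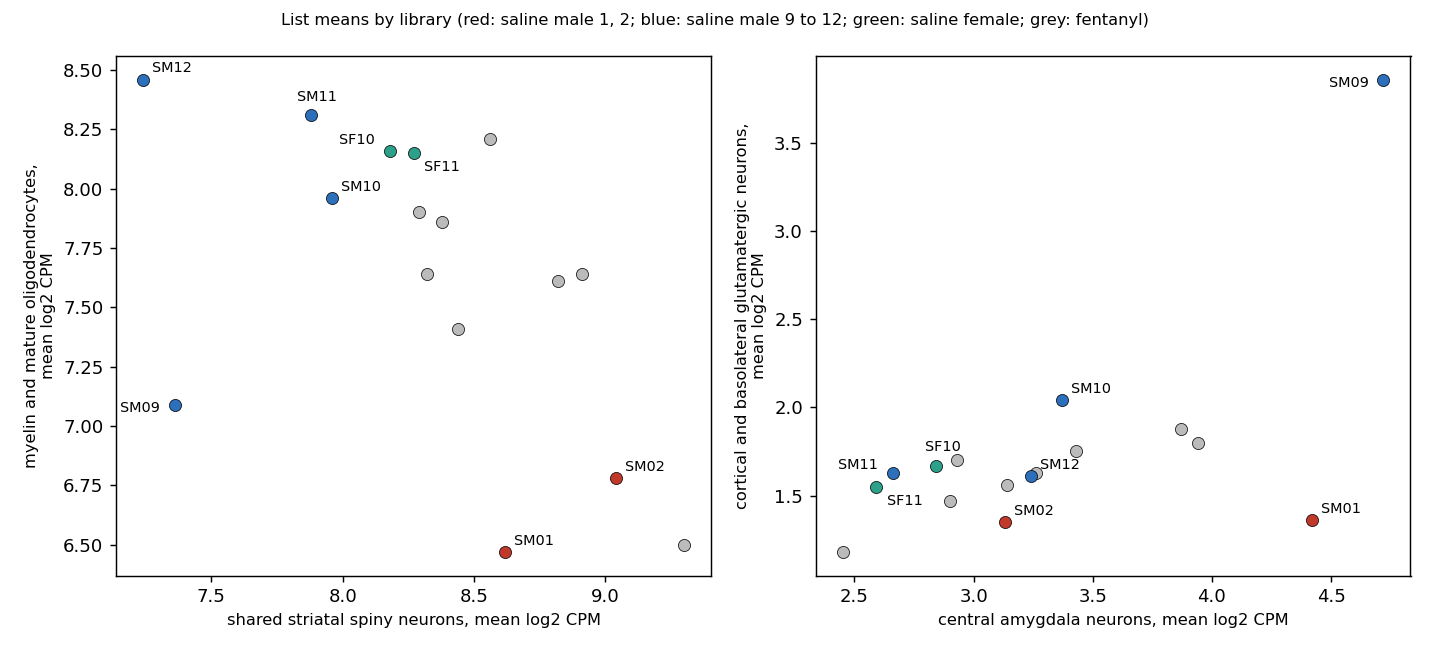
Mean log2 CPM of list members in all 16 libraries, scaled together; left, shared striatal against myelin genes, and right, central amygdala against cortical and basolateral genes. Red points are saline males 1 and 2, blue saline males 9 to 12, green saline females and grey fentanyl libraries, 1 point per library. SM01 and SM02 have the lowest myelin means of the saline libraries, and SM09 is alone at 3.86 on the cortical and basolateral axis.

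The saline females, numbers 10 and 11, were not used to form the sets. With all 16 libraries scaled together, their shared striatal means were 8.18 and 8.27 on the log2 CPM scale, below SM01 (8.62) and SM02 (9.04) and above SM09 to SM12 (7.24 to 7.96). Their myelin means of 8.16 and 8.15 lay within the range of SM09 to SM12 (7.09 to 8.46) and above SM01 and SM02 (6.47 and 6.78). The 8 fentanyl libraries had striatal means of 8.29 to 9.30 and myelin means of 6.5 to 8.21. The striatal means of the fentanyl libraries lay above all of SM09 to SM12 and above both saline females, and their myelin means overlapped those of SM09 to SM12. With the females added and sex as a term, edgeR called 1235 genes higher and 1403 lower. In that fit the females bear only on the estimate of spread, not on the difference between the number sets.

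Some immediate early genes, which neurons switch on quickly after activity, were higher in numbers 1 and 2. Of 14 members, 3 were called higher and none lower, 10 had no overlap, and the median log2 fold change was 1.18. Among all genes tested, 5.73% were called higher and 22.8% were higher with no overlap. Arc, a synaptic plasticity protein, had 75.4 and 119 CPM against 43.6, 48.4, 23.0 and 20 CPM (1.53 ± 0.37, adjusted p = 0.0446). Nr4a1, an orphan nuclear receptor, had 74.0 and 85.4 CPM against 48.6, 36.8, 21.4 and 25.7 CPM (1.26 ± 0.29), and Homer1, a postsynaptic scaffold, 172 and 199 CPM against 58.2 to 99.1 CPM (1.16 ± 0.20). SM11 and SM12 were the lowest for Arc and Nr4a1. Npas4 (2.27 ± 0.65, adjusted p = 0.0609), Egr1 (1.16 ± 0.35) and Fosb (1.22 ± 0.42) did not pass, and Fos overlapped between the sets (0.52 ± 0.44). The striatal markers are higher in the same libraries, with summed levels of the shared list of 11237 and 15118 CPM in SM01 and SM02 and 4173 to 7024 CPM in the others, and their part in the difference of these genes was not tested.

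The promoters of 3 called genes are shown because each belongs to a list with called members and holds a motif of a factor known to act on such genes. They are the 250 bases before the RefSeq start (GRCr8), 5′ to 3′ on the gene's strand, with the motif in capitals, and were chosen after the matches were seen. Gpr6, chr20:46075252-46075501, minus strand, holds the cAMP response element TGACGTCA at -93. Nr4a1, chr7:134259888-134260137, plus strand, holds the related TGCGTCA, known from the Penk enhancer, at -248, -228, -84 and -55. Hapln2, chr2:175794439-175794688, minus strand, holds ACAAAG, a core bound by SOX proteins, at -94.
Gpr6: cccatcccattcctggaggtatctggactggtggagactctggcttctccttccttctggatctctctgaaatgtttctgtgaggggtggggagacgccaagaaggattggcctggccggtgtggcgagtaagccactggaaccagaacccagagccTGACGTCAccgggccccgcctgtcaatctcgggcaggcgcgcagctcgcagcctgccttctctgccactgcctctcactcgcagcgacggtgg
Nr4a1: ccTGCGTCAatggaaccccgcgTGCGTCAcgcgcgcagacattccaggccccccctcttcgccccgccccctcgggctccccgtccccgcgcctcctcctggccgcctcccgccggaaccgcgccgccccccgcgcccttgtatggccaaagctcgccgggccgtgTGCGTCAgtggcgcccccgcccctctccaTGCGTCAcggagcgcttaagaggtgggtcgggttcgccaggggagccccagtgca
Hapln2: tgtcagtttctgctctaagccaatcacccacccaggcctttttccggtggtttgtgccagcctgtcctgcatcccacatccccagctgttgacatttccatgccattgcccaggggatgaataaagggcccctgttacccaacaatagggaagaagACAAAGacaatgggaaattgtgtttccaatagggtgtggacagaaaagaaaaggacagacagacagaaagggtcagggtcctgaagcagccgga

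Searched on both strands, TGACGTCA stood in 1.7% of all 27457 promoters, in 2.64% of the 12690 promoters of tested genes, in 3.73% of 751 promoters of genes called higher and in 1.02% of 786 of genes called lower. The shares for TGCGTCA in the same 4 groups were 1.84%, 2.93%, 2.93% and 1.27%, and for ACAAAG 16%, 12%, 12.8% and 10.3%. The AP-1 motif TGANTCA, also searched, was in 6.36%, 4.46%, 4.13% and 6.11%. ACAAAG was in 5 of 18 promoters of the myelin list. TGACGTCA was in 1 of 4 promoters of the indirect pathway list, that of Gpr6. In the immediate early list, TGCGTCA was in 1 of 11 promoters, that of Nr4a1, and TGACGTCA was in 3 of 11. None of the 4 motifs contains another, and a match describes these windows only.

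The 12 called genes with the largest differences in each direction, among those with a mean of at least 5 CPM and a settled symbol, are named here with those already given. Syt10, a synaptotagmin, led those higher in numbers 1 and 2, with 49.2 and 29.8 CPM against 3.62 to 7.97 CPM (2.77 ± 0.30, adjusted p = 0.0193). Myo5c, an unconventional myosin, had 126 and 165 CPM against 17.7 to 30.5 CPM (2.65 ± 0.22), and Calb1, the calcium buffer calbindin of striatal matrix neurons, 453 and 545 CPM against 90.3 to 141 CPM (2.07 ± 0.19). Itga8, an integrin (2.50 ± 0.30), Nxph4, a neurexophilin (2.37 ± 0.42), Iqgap2 (2.36 ± 0.40), Pde1c, a calmodulin-dependent phosphodiesterase (2.19 ± 0.47), Mctp1 (2.01 ± 0.18), Klf5 (2.00 ± 0.34) and Pou3f1, a POU-domain factor (1.89 ± 0.23), followed with Cartpt and Gpr6. Pde1c had 175 CPM in SM01 and 40.9 CPM in SM02, against 19.7 to 28.1 CPM, and Nxph4 12.6 and 42.4 CPM against 4.13 to 6.71 CPM. The log2 fold change of Pde1c was 0.81 without SM01, and that of Nxph4 was 1.25 without SM02.

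Among the lower genes, Gli1, a target and effector of hedgehog signalling, had 2.09 and 0.235 CPM against 9.57 to 20.2 CPM (-3.62 ± 0.69, adjusted p = 0.0293). Ctxn3, a cortexin, had 5.08 and 1.64 CPM against 25.5 to 39.3 CPM (-3.29 ± 0.41), and Slc25a18, a mitochondrial glutamate carrier of astrocytes, 7.72 and 2.11 CPM against 29.1 to 43.9 CPM (-2.86 ± 0.46). Grifin (-2.71 ± 0.64), Ndst4, a heparan sulfate sulfotransferase (-2.55 ± 0.49), Galnt6 (-2.46 ± 0.45), Pdk4, pyruvate dehydrogenase kinase (-2.33 ± 0.60), and Phlda3 (-2.28 ± 0.36) followed, with Ngfr, Slc17a6 and Itih3. Vom2r44 had the largest difference, with 0.278 and 0.822 CPM against 6.81 to 15.3 CPM (-4.07 ± 0.55). It belongs to a family of similar vomeronasal receptor genes, and whether reads were split between them was not tested. In Gli1, Ngfr, Slc17a6, Ctxn3, Slc25a18 and Itih3, SM02 was below SM01. With 1 library left out the log2 fold change of Gli1 ran from -5.82 to -2.71 and that of Slc17a6 from -4.85 to -2.10.

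Of 23 genes of cholesterol synthesis, which oligodendrocytes and astrocytes run at a high rate, 5 were called lower and none higher (median -0.33), against 5.94% of all genes tested called lower, with Lss, lanosterol synthase, at 41.4 and 41.6 against 61.6 to 73.0 CPM (-0.73 ± 0.10). The summed myelin list was at 8432 and 11238 CPM in SM01 and SM02 and at 13141 to 37730 CPM in the others, and its part in this difference was not tested. Of 12 glucocorticoid-responsive genes, Fkbp5, a co-chaperone of the glucocorticoid receptor, was higher (0.73 ± 0.19) and Tsc22d3 (-0.77 ± 0.20), Zbtb16 (-1.20 ± 0.25) and Pdk4 were lower, 4 calls where 11.7% of all genes tested were called in either direction. None of 8 heat shock chaperones, 24 nuclear-encoded oxidative phosphorylation genes, 13 mitochondrially encoded genes or 73 ribosomal proteins was called, with medians of -0.03, -0.11, 0.22 and -0.20. With 1 library left out these ran from -0.20 to 0.19, -0.19 to -0.06, 0.10 to 0.32 and -0.24 to -0.11. Of 14 ependymal and motile cilia genes tested none was called (median 0.11, and 0.26 without SM09), and Has3, a hyaluronan synthase, was the single call of 9 perineuronal net genes (0.64 ± 0.16).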

How the data were processed

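Poly(A) RNA was sequenced from tissue labelled as central amygdala. The tools named per the submitters' processing notes are STAR, HTSeq, Trimmomatic and DESeq2, with build rn7. Versions, annotation and strand setting were not stated there, and reads of overlapping genes may not be told apart. The authors deposited unnormalized read counts for 33294 genes, 1 column per library, and columns were matched by library name. Of the 15 pairs among the 6 libraries none agreed within sampling noise (smallest chi-square per gene 11.2). Y-linked counts matched the sex label in 12 of 12 male libraries.

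The counts of the 6 saline male libraries went into edgeR 4.0.16 under R 4.3.3: filterByExpr (minimum 0.579 CPM), TMM factors, robust glmQLFit and glmQLFTest with the number set as the only term, 4 residual degrees of freedom, and Benjamini-Hochberg adjustment over all 17298 genes. Each standard error is the log2 fold change over the root of the F statistic. List means are of log2 CPM with a prior count of 2. The steps were tested on simulated counts of 17298 genes. They recovered 11.9% of 67 genes changed 1.5-fold, 70.1% of 67 changed 2-fold and 90.9% of 66 changed 4-fold. Of 131 calls, 16 were false, a larger share than the threshold on adjusted p aims at. Small changes were thus mostly missed, and the calls may hold more false ones than the threshold implies.

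The members, the 35 gene lists (492 entries, 2 matched by another symbol, 1 not found) and the tests were chosen with earlier results of these data known. Genes named are 6 markers, up to 12 called genes per direction by size of change (mean of at least 5 CPM, settled symbol, no overlap), and of each list up to 4 called members by smallest p or the one with the smallest p; in the lists described at length other members are named too. Other genes that missed the threshold or the filter were named after their values were seen. Promoters came from a RefSeq table of GRCr8, not the build of the counts, and matched 12690 tested genes. Alternatives were RLE factors, other filters, DESeq2 1.42.0, limma 3.58.1 voom, mitochondrially encoded genes left out, the saline females added with sex as a term, and each library left out. Raw reads were not used here, and some genes are not reported here.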

Additional observations from a re-analysis of the deposited data

Results flagged for a closer look

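Each value below is the library of numbers 9 to 12 that lay far from the other 3 by Dixon's criterion for 4 values. Of 179 list means, gene levels and library measures tested, 10 met it, which is near the 1 in 20 that chance gives. SM09 accounts for 6 of them. The SM09 genes below were named after their values were seen, so their flags add no independent support. Slc17a7 was at 69.0 CPM there and at 1.17 to 1.77 CPM in SM10 to SM12, Neurod6 at 4.47 against 0.497 to 0.949 CPM, and Slc30a3 at 10 against 0.0584 to 0.316 CPM. All 3 mark cortical and basolateral glutamatergic neurons. Of the central amygdala list, Dlk1 was at 40.4 against 0.773 to 4.49 CPM and Nts at 29.8 against 4.86 to 5.89 CPM. The mean of the ependymal and motile cilia list was 1.98 log2 CPM in SM09 and 1.23 to 1.31 in the others.

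SM12 had the lowest Adora2a, 85.2 CPM against 150 to 163 CPM, and the highest Laptm5, a microglial transcript, 38.6 CPM against 30.2 to 31.0 CPM. SM10 had the highest Pdyn, 296 CPM against 161 to 177 CPM. SM11 had the lowest Cck, the cholecystokinin precursor, 7.45 CPM against 10.8 to 11 CPM.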

How the results depend on the processing

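Against 992 genes higher and 1028 lower, DESeq2 gave 1532 and 1995, which held 987 and 1026 of them, and limma voom gave 795 and 676. RLE factors, both other filters, leaving out mitochondrially encoded genes and adding the saline females kept both counts within 1.5 times. With 1 library left out, edgeR called 0 to 2514 genes higher and 0 to 2770 lower, and DESeq2, added after seeing the data, 339 to 2397 and 581 to 2564 (622 higher without SM01, where the log2 fold change of Crh turned to -2.58). The extremes of edgeR were without SM11 and without SM09. Each such fit has fewer samples, and a lone library of numbers 1 and 2 is assumed to vary like the other set. List medians changed sign with 1 library left out for central amygdala (-0.66 to 0.79), intercalated (-0.30 to 0.09), somatostatin and Npy (-0.59 to 0.64), Vip, Cck and Lamp5 (-0.53 to 0.03), general GABAergic (-0.28 to 0.01), pan-neuronal (-0.06 to 0.12), endothelial (-0.25 to 0.08) and heat shock genes (-0.20 to 0.19). No paired analysis was possible because the 2 sets share no library number. Depth limits low transcripts: genes not above 0.579 CPM in enough libraries were tested only without the filter.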

Other observations

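Gene families were counted by symbol after the data were seen, beside 5.73% of tested genes called higher and 5.94% lower. Of 82 potassium channel genes, 14 were higher and 7 lower in numbers 1 and 2. Those higher included Kcnd2, an A-type channel (209 and 230 CPM against 95.8 to 139 CPM, log2 fold change 0.88 ± 0.15), and the inward rectifier Kcnj4 (1.15 ± 0.24), which striatal neurons make. Those lower included the fast-spiking channel genes Kcnc1, Kcnc2 and Kcnc4 (-1.25 ± 0.22) and Kcna6 (-1.27 ± 0.21). Of 16 GABA-A receptor subunits, Gabra4 (284 and 307 CPM against 89.8 to 149 CPM, 1.21 ± 0.19), Gabrd (0.98 ± 0.23) and Gabrg3 were higher. Of 24 genes with a calcium channel symbol, 6 were higher and 2 lower (median 0.60). The 2 lower were Cacng2 (-0.68 ± 0.12) and Cacng7 (-0.71 ± 0.18), and Cacng3 was among the higher. These Cacng genes were counted by symbol alone and need not encode parts of the channel. Among 19 Rgs genes, which end G protein signals, 5 were higher and none lower (median 0.37), with Rgs2 (1.09 ± 0.21) and Rgs20 (1.08 ± 0.16) among the higher.

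Of 10 adenylyl cyclase genes, 3 were higher and 4 lower: Adcy5, Adcy3 and Adcy9 were higher, and Adcy2 (56.3 and 52.4 CPM against 95.9 to 107 CPM, -0.90 ± 0.09), Adcy6, Adcy7 and Adcy8 were lower. Of 29 semaphorin and plexin genes, which guide axons, 6 were lower and 1 higher (median -0.33), with Plxnb3, an oligodendrocyte plexin, at 60.9 and 56.8 CPM against 102 to 234 CPM (-1.58 ± 0.31). Of 24 glutamate receptor genes counted by symbol, 3 were higher and 3 lower (median 0.39). Those higher were Grik2 (0.79 ± 0.11), Grm5 (0.97 ± 0.20) and Gria2 (0.90 ± 0.20), and those lower Grin2d, Grik1 and Grik4. Grin2d, an NMDA receptor subunit, had 15.2 and 12.4 CPM against 37.6 to 48.7 CPM (-1.63 ± 0.15).

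Oxt, the oxytocin precursor, had 176 counts in SM09 and 0 counts in each of the other 5 libraries, and Avp, the vasopressin precursor, 14 counts in SM09 and 0 to 8 in the others. Neither gene passed the filter, Oxt being detected in 1 library, and Oxt was chosen after its values were seen.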
